A study of Mus musculus with 16 samples.

Results

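The transcripts of 6 surface receptors that guide neutrophils and monocytes were followed in single-cell transcriptomes of mouse bone marrow and of the 2208L mammary tumor. They were chosen by symbol, as the rows of the expression matrices named Cxcr2, Cxcr4, Ccr1, Ccr2, Fpr1 and Fpr2, 6 of 32285 genes. All 6 passed the low-count filter in each of the 6 marrow myeloid classes compared, which gave 36 pairs of a gene and a class.

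Neutrophils are made in the marrow from dividing precursors and leave it as non-dividing mature cells. The chemokine receptor Cxcr4 binds Cxcl12 of the marrow stroma and holds cells there, while Cxcr2 binds Cxcl1, Cxcl2 and related chemokines and draws mature neutrophils into blood and inflamed tissue. Ccr2 does the same for inflammatory monocytes through Ccl2 and Ccl7. Ccr1 binds Ccl3, Ccl6 and Ccl9, and the formyl peptide receptors Fpr1 and Fpr2 sense bacterial and mitochondrial peptides and, for Fpr2, annexin A1 and serum amyloid A, and steer the last steps toward damaged tissue.

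The marrow libraries held live CD45+ Ter119- cells of 3 groups with 2 libraries each. WT was untreated BALB/c mice without a tumor, vehicle was BALB/c mice carrying a 2208L tumor and given the solvent, and IACS was such mice given IACS-70654, an inhibitor of the bromodomain of the coactivators CBP and P300. 2208L is a transplantable Trp53-null mammary tumor kept as a frozen bank, so the tumor-bearing mice stand for 1 tumor line. The 4 tumor libraries held live cells of 2208L tumors treated with vehicle, with IACS-70654, with an antibody against PD1 (antiPD1) or with a combination, labelled as IACS-70654 with the antibody. The series record gives 7 days of treatment, with 3 days on and 2 days off the drug, for marrow and tumor alike, while 6 days are given for the marrow mice elsewhere, so the length of the marrow treatment is uncertain. The series record gives 1 pool of 3 mice for a treatment group and does not say that the 2 marrow libraries of a group came from separate pools, so the p-values below measure the spread between libraries, which may be technical. The WT mice differed from the vehicle mice in the tumor and in the vehicle treatment, and these cannot be told apart.

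The promoters of 4 of the genes are shown first, for the letters next to the start of each gene: Cxcr2 and Cxcr4 as the pair of release and retention receptors, and Ccr1 and Fpr2 for the falls with IACS-70654 described below. Cxcr2 and Cxcr4 lie on opposite strands of chromosome 1 (GRCm38, 74153989 to 74161246 and 128588199 to 128592293). Ccr1 and Ccr2 lie 133258 bases apart on chromosome 9, and the starts of Fpr1 and Fpr2 lie 3884 bases apart on chromosome 17. The 250 bases before the start of each gene, as RefSeq gives it for GRCm38.p6, run 5′ to 3′ along the gene's own strand, and capitals mark matches to the letters searched.
Cxcr2 (chr1:74153744-74153993, plus strand): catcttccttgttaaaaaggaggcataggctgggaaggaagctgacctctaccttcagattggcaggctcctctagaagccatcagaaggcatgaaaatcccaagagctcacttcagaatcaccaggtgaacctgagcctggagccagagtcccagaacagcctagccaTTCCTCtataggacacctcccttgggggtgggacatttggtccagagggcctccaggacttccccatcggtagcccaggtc
Cxcr4 (chr1:128592300-128592549, minus strand): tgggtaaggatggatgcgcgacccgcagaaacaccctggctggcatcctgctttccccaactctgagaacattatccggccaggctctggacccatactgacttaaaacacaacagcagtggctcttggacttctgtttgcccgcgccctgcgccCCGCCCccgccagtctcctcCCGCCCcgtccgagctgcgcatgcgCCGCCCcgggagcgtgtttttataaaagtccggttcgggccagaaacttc
Ccr1 (chr9:123968693-123968942, minus strand): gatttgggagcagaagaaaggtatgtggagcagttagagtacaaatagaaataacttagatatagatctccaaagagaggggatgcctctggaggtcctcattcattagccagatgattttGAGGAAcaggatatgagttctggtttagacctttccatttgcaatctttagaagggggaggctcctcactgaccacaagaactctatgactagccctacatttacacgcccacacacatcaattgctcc
Fpr2 (chr17:17887574-17887823, plus strand): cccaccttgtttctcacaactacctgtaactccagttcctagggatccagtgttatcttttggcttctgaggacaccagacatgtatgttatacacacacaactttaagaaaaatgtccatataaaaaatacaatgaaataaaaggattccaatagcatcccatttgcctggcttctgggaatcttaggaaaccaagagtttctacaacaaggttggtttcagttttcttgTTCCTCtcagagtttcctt
Both strands were searched for GAGGAA, the core bound by the myeloid factor PU.1, for GGGCGG, the GC box of Sp1, and for TTGCNNAA of C/EBP factors, TGANTCA of AP-1 and CACGTG of MYC. Cxcr2, Ccr1 and Fpr2 each held the PU.1 core once, and Cxcr4 held 3 GC boxes and had a GC content of 61.2%, against a median of 52.4% over all promoters. Of 32851 mouse promoters of the same length, 23.3% held GAGGAA, 32.7% GGGCGG, 9.56% TTGCNNAA, 6.75% TGANTCA and 6.02% CACGTG. The windows before Ccr2 and Fpr1 held no match, and the last 3 motifs had none in any of the 6 windows, which says only that these letters are not in them.

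The 6 marrow libraries had 27816638 to 54510172 unique molecular identifiers (UMIs), and 31191 cells were kept, with medians of 4113 to 6596.5 UMIs per cell. The 4 tumor libraries had 15590289 to 43594797 UMIs and 13830 kept cells, with medians of 4724 to 6332. Among marrow neutrophils, 15 clusters gave, by marker genes, dividing promyelocyte-like cells (proNeu), dividing preNeu, immature, mature and Il1b-rich neutrophils, each name meaning likeness by markers, plus an unnamed cluster of 4534 cells led by Cd55 and Mmp8. Some names were close: the cluster led by Hells scored 0.688 for proNeu and 0.678 for preNeu, and the mature cluster led by Prr5l 0.638 for mature and 0.635 for Il1b-rich. Levels are CPM, the UMIs of a gene scaled to the total UMIs of its class in each library. Free RNA gives UMIs in cells that do not express a gene. In B cells, which should lack these receptors, Cxcr2 read 42.4 to 156 CPM, Ccr1 25.3 to 60.7, Fpr1 10.5 to 29.96 and Fpr2 28.3 to 57.7. Cxcr2 in B cells was higher in vehicle and IACS than in WT libraries. These CPM overstate the background of deeper cells where free RNA adds a like number of UMIs to each droplet, since B cells had medians of 3005 to 4285 UMIs, preNeu of 10539 to 14013 and proNeu of 12026.5 to 16730. The share of cells with a UMI, not thinned, is therefore given beside the CPM for low levels; in B cells it was 9.26% to 17.3% for Cxcr2 and 5.84% to 12.2% for Ccr1. B cells do express Cxcr4, so no background is given for it. The 21 pairs of libraries from the same tissue shared 0 cell barcodes. Fpr2 shares 6101 bases with the gene model of Fpr3, and the mature neutrophils had 26285 UMIs counted to Fpr2 and 917 to Fpr3, so how reads were split between these 2 genes is uncertain.

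Cxcr2, the release receptor, was lowest in proNeu and highest in Il1b-rich cells among the neutrophil stages. Its level ran from 15.2 to 32.7 CPM in proNeu over the 6 libraries and from 27.8 to 72.4 in preNeu, both no higher in CPM than the B cell range, although 14.1% to 26.8% of proNeu and 19.0% to 45.6% of preNeu had a Cxcr2 UMI. With each cell thinned to 1000 UMIs these shares were 0.909% to 2.935% and 1.56% to 8.08%, against 0% to 9.62% of B cells. The Cxcr2 level ran from 114 to 213 CPM in immature neutrophils, with a median of 139. The unnamed cluster lay at 492 to 605 CPM, mature neutrophils at 1040 to 1368 and Il1b-rich neutrophils at 1629 to 1779. From immature neutrophils to the Il1b-rich cells no neighbors in this order overlapped in any library. Monocytes, at 20.8 to 39.3 CPM, lay under the lowest B cell library in CPM, and 12.6% to 20.8% of them had a Cxcr2 UMI.

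Ccr1 followed a similar course. It ran from 10.0 to 15.9 CPM in proNeu to 58.4 to 133 in immature neutrophils, 356 to 578 in mature and 568 to 777 in Il1b-rich neutrophils. The mature and Il1b-rich ranges overlapped only through a WT library of the former and an IACS library of the latter. Basophils, at 124 to 242 CPM, were the class outside the neutrophil lineage with the most Ccr1, and monocytes, at 43.6 to 61.4, overlapped B cells.

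The formyl peptide receptors had their highest levels earlier. Fpr2 was already at 62.4 to 77.7 CPM in the proNeu of WT and vehicle mice, above all B cell values, and at 179 to 216 in their preNeu. Within proNeu the level lay mostly in the cluster led by Hells, at 167 CPM in WT and 168 in vehicle mice, whose name was nearly a tie with preNeu, while the cluster led by Mpo read 22.8 and 31.8 CPM. Over all 6 libraries it lay at 258 to 479 in immature neutrophils, 365 to 532 in the unnamed cluster, 321 to 467 in mature and 125 to 240 in Il1b-rich neutrophils. The ranges of the first 3 of these overlapped. Fpr1 was at 42.3 to 70.1 CPM in immature neutrophils, 216 to 249 in the unnamed cluster, 255 to 318 in mature and 78.2 to 166 in Il1b-rich neutrophils. Its order put mature above unnamed, Il1b-rich and immature neutrophils with no overlap between neighbors.

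Cxcr4, the retention receptor, had a narrower range. In WT it read 41.0 and 36.1 CPM in proNeu, 68.2 and 70.3 in preNeu, 77.8 and 82.1 in immature neutrophils, 107 and 101 in mature and 148 and 135 in Il1b-rich neutrophils, so WT levels were higher in later named stages. The unnamed cluster, whose place among the stages was not tested, read 112 and 120 CPM of Cxcr4. Its medians over the 6 libraries ran from 38.5 CPM in proNeu to 124 in Il1b-rich neutrophils, with 67.2 in preNeu, 54.1 in immature and 53.3 in mature neutrophils and 78.7 in monocytes, and all neighbors in the order overlapped down to the progenitors at 24.3 to 42.9 CPM. Ccr2 belonged to monocytes, which held 593 to 908 CPM, above every other class without overlap. T and NK cells came next at 124 to 367 CPM and plasmacytoid dendritic cells at 82.4 to 275. Neutrophil classes had medians of 3.25 to 12.6 CPM of Ccr2, against 1.23 to 11.8 in B cells.

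**Figure D1:**
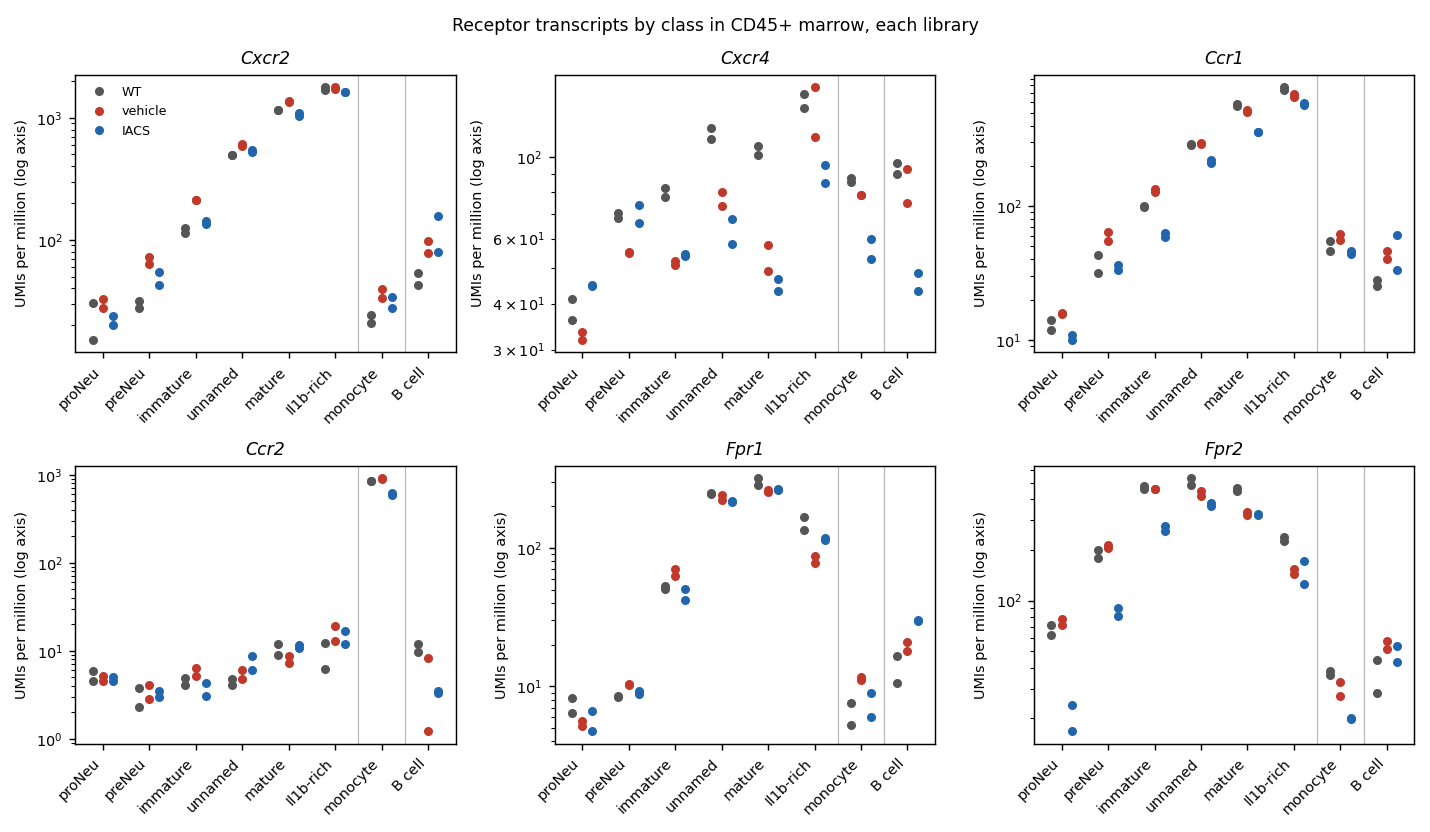
Level of each receptor transcript in CD45+ marrow, in CPM on a log axis, by class, with 1 point per library (gray WT, red vehicle, blue IACS). Cxcr2 and Ccr1 climb from proNeu to Il1b-rich cells, Fpr2 is highest in immature, unnamed and mature cells, and Ccr2 stands at 593 to 908 CPM in monocytes. The B cell column gives a background of free RNA in CPM for Cxcr2, Ccr1, Fpr1 and Fpr2.

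The balance of release and retention receptors turned over along the lineage. UMIs of Cxcr2 per UMI of Cxcr4 were 0.371 and 0.844 in WT proNeu, 1.46 and 1.53 in WT immature neutrophils, 10.8 and 11.4 in WT mature neutrophils and 11.4 and 13.1 in WT Il1b-rich neutrophils. In vehicle mice the ratio was 4.07 and 4.13 in immature and 28.0 and 23.1 in mature neutrophils, above both WT libraries in each class. In IACS mice it was 2.66 and 2.47 in immature neutrophils, between the other groups, and 22.3 and 25.0 in mature neutrophils, where it overlapped vehicle. Monocytes stayed under 1 in all 6 libraries, with 0.238 as the lowest and 0.649 as the highest ratio. In proNeu and monocytes Cxcr2 lay under the lowest B cell library in CPM, and the part of free RNA in these ratios was not tested.

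Single cells were thinned to 1000 UMIs so that depth did not set the shares. Mature neutrophils had a Cxcr2 UMI in 68.0% and 69.0% of the WT cells, 73.7% and 73.3% in vehicle mice and 65.9% and 65.6% in IACS mice. A Cxcr4 UMI was found in 10.8% and 7.81% of them in WT, 5.03% and 5.61% in vehicle mice and 3.70% and 3.75% in IACS mice. B cells had a Cxcr2 UMI in 0% to 9.62% and a Cxcr4 UMI in 6.12% to 12.2% of cells. Without thinning the Cxcr2 share of mature cells was 91.8% and 92.8% in WT, 97.0% and 97.6% in vehicle mice and 97.1% and 96.5% in IACS mice, and the IACS libraries no longer stood lowest. The thinned shares rest on 1187 of 1198 and 1127 of 1131 WT, 1809 of 1823 and 2212 of 2239 vehicle, and 1596 of 1610 and 1920 of 1946 IACS cells. The median depth before thinning was 2612 and 2661 UMIs in WT, 3275 and 3280 in vehicle mice and 4291 and 4175.5 in IACS mature neutrophils, against 3005 to 4285 in B cells. WT mature cells with both receptors were 7.67% and 5.32%, beside 7.33% and 5.39% if the 2 transcripts were detected independently. In vehicle mice they were 3.26% and 3.48%, beside 3.71% and 4.11%.

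**Figure D2:**
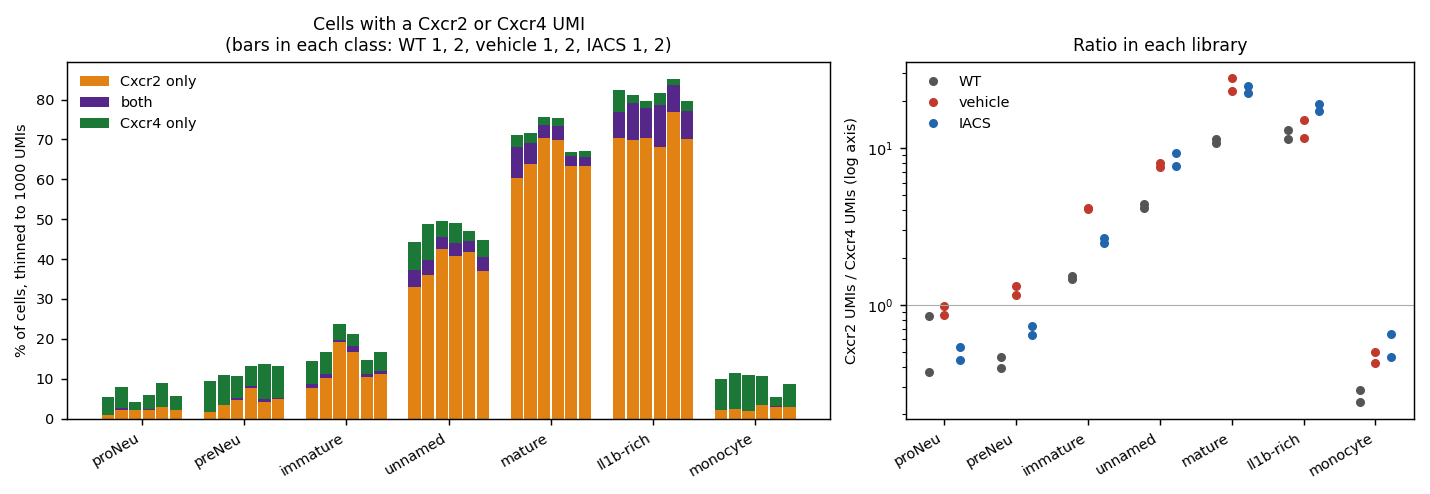
Left, percent of cells with a UMI of Cxcr2, of Cxcr4 or of both after thinning to 1000 UMIs, 1 stacked bar per library in the order WT, vehicle, IACS; right, ratio of Cxcr2 to Cxcr4 UMIs in each library on a log axis. Cells with Cxcr2 only take over from immature to mature neutrophils, and the WT points lie under the vehicle points from preNeu to mature cells.

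Changes between groups were tested on UMIs summed per class and library in edgeR by quasi-likelihood, and p-values were adjusted by Benjamini-Hochberg over all genes of the class. To be called, a gene had to pass 0.01 in its adjusted p and 0.5 in the size of its log2 change. Both comparisons use the vehicle libraries, so a high or low vehicle library moves them in opposite directions. The fit scales by TMM factors. With total UMIs instead, the median log2 change of all genes in the 5 neutrophil classes other than Il1b-rich moved to between -0.26 and -0.097 for vehicle against WT and between 0.21 and 0.25 for IACS against vehicle, so the changes below are relative to the bulk of each class's genes.

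In tumor-bearing mice Cxcr2 and Ccr1 were higher in preNeu and immature neutrophils. Of the 36 pairs, 6 rose and 1 fell in vehicle against WT marrow. Cxcr2 in immature neutrophils read 114 and 126 CPM in WT, 213 and 210 in vehicle mice and 143 and 135 in IACS mice. The vehicle libraries lay above all others, and Cxcr2 rose by a log2 change of 1.05 ± 0.06 (standard error) over WT (adjusted p = 1.45e-20, edgeR). Ccr1 in the same cells read 100 and 97.7 CPM in WT and 128 and 133 in vehicle mice and rose by 0.63 ± 0.07. Fpr1, at 53.2 and 50.3 CPM in WT and 62.7 and 70.1 in vehicle mice, rose by 0.59 ± 0.10. With total UMIs as the scale the rises of Ccr1 and Fpr1, at 0.40 and 0.36, were no longer called. The rise of Fpr1 was not called either with stages assigned per cell (0.47) or after thinning to 1000 UMIs (0.31). So 3 of 6 receptors rose in immature neutrophils, against 2.7% of the 10034 genes tested there.

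PreNeu showed the same direction for Cxcr2 and Ccr1. Cxcr2 read 31.8 and 27.8 CPM in WT, 63.8 and 72.4 in vehicle mice and 42.7 and 54.4 in IACS mice, with no overlap between WT and vehicle, and rose by 1.35 ± 0.11 (adjusted p = 1.38e-10, edgeR). The B cells of the same libraries read 42.4 and 53.3 CPM in WT and 77.3 and 98.6 in vehicle mice, above the preNeu values in CPM. A Cxcr2 UMI was found in 22.5% and 19.0% of preNeu in WT and in 44.0% and 45.6% in vehicle mice, against 9.26% and 11.2% and 11.7% and 14.8% of their shallower B cells. The part of free RNA in the change was not tested. Ccr1 in preNeu, at 43.0 and 31.9 CPM in WT and 54.6 and 63.6 in vehicle mice, rose by 0.82 ± 0.11, beside 25.3 and 28.0 and 40.5 and 46.2 CPM in B cells, and 40.5% and 43.9% of vehicle preNeu had a Ccr1 UMI against 10.5% and 11.5% of vehicle B cells. After thinning the Ccr1 rise was 0.59 and not called. The thinned Ccr1 shares in vehicle mice were 5.45% and 5.86% of preNeu and 3.11% and 2.78% of B cells. These 2 of 6 receptors compare with 2.08% of 10391 genes called higher in preNeu. In proNeu no receptor was called by edgeR or DESeq2, 2 had an unadjusted p under 0.05 and 2.27% of 10529 genes were called in either direction.

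In mature neutrophils the called receptor was Cxcr4. It read 107 and 101 CPM in WT, 48.9 and 57.8 in vehicle mice and 46.6 and 43.3 in IACS mice. Both WT libraries stood above all 4 libraries of tumor-bearing mice, and Cxcr4 fell by 0.85 ± 0.09 on the log2 scale in vehicle against WT (adjusted p = 5.77e-11, edgeR). It was the 1 receptor of 6 called in these cells, where 3.57% of 10557 genes were called lower. The group means of the 3 mature clusters kept this order, with 82.9 against 39.4 CPM in the cluster led by Prr5l, 120 against 64.2 in the cluster led by Prok2 and 95.1 against 56.9 in the interferon-response cluster led by Ifit1. The fall was not called with clusters cut at a resolution of 1.6, where it was -0.44, or without integration of the groups, where it was -0.46. The summed markers of Il1b-rich cells within the mature class moved along, from 3178 and 3009 CPM in WT to 10460 and 10450 in vehicle mice and 14140 and 15120 in IACS mice, and their part in the change was not tested. Cxcr2 in mature neutrophils read 1153 and 1152 CPM in WT and 1368 and 1336 in vehicle mice, a log2 change of 0.34 ± 0.03 that missed the size threshold although its adjusted p was 8.21e-13 (edgeR). Over the other settings the Cxcr2 change in these cells ran from 0.23 to 0.57, at its highest past the size threshold. Fpr2 had a log2 change of -0.37 ± 0.04 there, Fpr1 of -0.11 ± 0.05 and Ccr1 of -0.036 ± 0.036, none called. Cxcr4 in immature neutrophils, at 77.8 and 82.1 CPM in WT and 52.2 and 50.9 in vehicle mice, did not overlap either, and its change of -0.40 ± 0.09 missed the size threshold.

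The unnamed cluster held 1 call, Cxcr2 at 492 and 493 CPM in WT and 605 and 591 in vehicle mice, a rise of 0.52 ± 0.04, against 3.88% of 9160 genes called higher. Without vehicle library 1 the change was 0.497, and with total UMIs 0.28, both under the size threshold. Il1b-rich neutrophils had no receptor called by edgeR or DESeq2 in vehicle against WT, with 2 at an unadjusted p under 0.05 and 2.48% of 6400 genes called in either direction. Those were Fpr1, at 166 and 135 CPM in WT and 78.2 and 86.8 in vehicle mice, and Fpr2, at 240 and 228 and 155 and 143, named after their values were seen. Their log2 changes were -0.91 ± 0.27 and -0.70 ± 0.22. The class had only 94 and 101 WT cells, with 158110 and 158610 UMIs against 3326400 and 3263400 in WT mature neutrophils. Its standard errors were larger, so a missing call there does not show the absence of a change. In monocytes, Ccr2 read 847 and 847 CPM in WT and 908 and 893 in vehicle mice, a log2 change of 0.08 ± 0.03 that was not called. Cxcr2 was the 1 receptor of 6 called there, against 0.576% of 11290 genes called higher. It read 20.8 and 24.3 CPM in WT and 33.6 and 39.3 in vehicle mice, rose by 0.68 ± 0.15 and lay under the B cell CPM of the same libraries throughout. Its call was lost without WT library 1 (0.57), vehicle library 1 (0.77) or vehicle library 2 (0.57), with DESeq2 (0.68) or after thinning (0.32).

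Of the 36 pairs, 15 fell and 0 rose in IACS against vehicle marrow. Pairs that were not called also read higher with IACS-70654, such as Fpr1 in Il1b-rich neutrophils, at 78.2 and 86.8 CPM in vehicle and 115 and 119 in IACS mice, and Cxcr4 in proNeu, at 31.9 and 33.4 and at 44.5 and 44.8. Fpr2 fell in the 3 earliest stages. In proNeu it read 77.7 and 71.7 CPM in vehicle mice and 16.8 and 24.1 in IACS mice, a fall of 2.05 ± 0.12 on the log2 scale (adjusted p = 6.74e-16, edgeR). With stages assigned per cell it was -1.02 and without integration -1.03, still called. In preNeu it read 216 and 204 CPM in vehicle mice and 90.2 and 80.9 in IACS mice and fell by 1.52 ± 0.06. In immature neutrophils it read 459 and 462 CPM in vehicle mice and 279 and 258 in IACS mice and fell by 1.02 ± 0.04. In each of these classes both WT libraries lay with vehicle, at 71.8 and 62.4, 201 and 179, and 458 and 479 CPM, so the IACS libraries stood apart from the other 4. In mature neutrophils Fpr2 read 322 and 336 CPM in vehicle mice and 321 and 326 in IACS mice, and the log2 change of -0.24 ± 0.04 was not called.

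The makeup of the earliest class moved with this result. Summed markers of immature neutrophils in proNeu were 52370 and 56090 CPM in vehicle mice and 12950 and 15410 in IACS mice. Within proNeu clusters, group levels of Fpr2 were 168 CPM in vehicle and 52.3 in IACS mice in the replicating cluster led by Hells, 59.6 and 18.3 in the cluster led by Hist1h1b, 31.8 and 19.3 in the cluster led by Mpo, and 8.33 and 10.0 in the small cluster led by Mif. The part of the changed mix of cells was not tested.

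Ccr1 was called lower in all neutrophil classes but the Il1b-rich one. In immature neutrophils it read 128 and 133 CPM in vehicle mice and 63.0 and 58.4 in IACS mice, below both WT libraries too, and fell by 1.35 ± 0.06 (adjusted p = 7.39e-24, edgeR). In mature neutrophils it read 558 and 578 CPM in WT, 526 and 504 in vehicle mice and 356 and 360 in IACS mice and fell by 0.74 ± 0.03. Both IACS libraries lay under the other 4 in these classes. The fall was 1.01 ± 0.10 in preNeu, 0.64 ± 0.05 in the unnamed cluster and 0.80 ± 0.18 in proNeu, the last at 10.0 to 15.9 CPM, under the B cell level in CPM, with a Ccr1 UMI in 10.97% to 16.9% of cells. The proNeu call was lost without integration (-0.37), with DESeq2 (-0.81) or without vehicle library 2, where the change was -0.79 with an adjusted p of 0.0145 (edgeR). The preNeu call was lost after thinning (-0.83) and that of the unnamed cluster with total UMIs (-0.44). In immature neutrophils the fall was 0.85 with stages assigned per cell, still called. Il1b-rich neutrophils read 654 and 690 CPM in vehicle mice and 593 and 568 in IACS mice, a log2 change of -0.26 ± 0.09 that was not called.

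Cxcr2 fell by 0.84 ± 0.05 in immature neutrophils, from 213 and 210 CPM in vehicle to 143 and 135 in IACS mice, which were still above WT at 114 and 126. With each cell assigned to a stage on its own in place of by cluster, the change was -0.43 and was not called. In mature neutrophils it read 1368 and 1336 CPM in vehicle mice and 1040 and 1083 in IACS mice, below WT at 1153 and 1152, and fell by 0.56 ± 0.03 (adjusted p = 6.26e-22, edgeR). The mature change was not called with total UMIs as the scale (-0.35), with stages assigned per cell (-0.46), after thinning (-0.46) or without integration (-0.45). It fell by 0.70 ± 0.09 in preNeu, where 44.0% and 45.6% of cells had a Cxcr2 UMI in vehicle and 34.0% and 35.5% in IACS mice, against 11.7% to 17.3% of B cells in these libraries, and by 0.66 ± 0.16 in proNeu. The preNeu call was lost with total UMIs as the scale (-0.48) or after thinning (-0.55). Thinned shares of preNeu were 5.03% and 8.08% in vehicle and 4.905% and 5.10% in IACS mice, against 0% to 9.62% of B cells. The proNeu call was lost with DESeq2 (-0.68), with total UMIs (-0.45), without integration (-0.44) or without vehicle library 2 (-0.54). Cxcr4 was called in no class by this comparison. In mature neutrophils it read 48.9 and 57.8 CPM in vehicle mice and 46.6 and 43.3 in IACS mice, and its log2 change of -0.48 ± 0.08 missed the size threshold, but passed it without vehicle library 1 (-0.57) or IACS library 1 (-0.53). Over all other settings this change ran from -0.66 to -0.26. In monocytes, at 78.9 and 78.5 CPM in vehicle mice and 59.9 and 52.9 in IACS mice, the change was -0.48 ± 0.09. In Il1b-rich neutrophils Cxcr4 read 113 and 154 CPM in vehicle mice and 84.9 and 94.8 in IACS mice. The change there, -0.61 ± 0.19, passed the size threshold, but its adjusted p of 0.0112 (edgeR) missed the other. In the unnamed cluster it was -0.47 ± 0.08, from 80.3 and 73.5 to 58.0 and 67.8 CPM. The IACS libraries lay below the others in each of these classes. The Cxcr4 change was -0.16 ± 0.08 in immature neutrophils, 0.14 ± 0.08 in preNeu and 0.23 ± 0.11 in proNeu.

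Fpr1 was called in immature neutrophils, with 62.7 and 70.1 CPM in vehicle mice and 50.5 and 42.3 in IACS mice, a fall of 0.77 ± 0.08. With stages assigned per cell it was -0.32 and not called. Ccr2 in those cells fell by 0.84 ± 0.26 (adjusted p = 0.00988, edgeR) at only 3.04 to 6.44 CPM, within the B cell range, and the call was lost without vehicle library 1 (-0.69), vehicle library 2 (-1.01), IACS library 1 (-0.63) or IACS library 2 (-1.15), with DESeq2 (-0.88), total UMIs (-0.61), stages assigned per cell (-0.30), a resolution of 1.6 (-0.62) or the highest doublet scores left out (-0.76). The makeup of the immature class moved too, with 5 WT, 74 vehicle and 368 IACS cells in a cluster of it. Another, at 512 CPM of Cxcr2 in vehicle mice, had 71 vehicle and 45 IACS cells. In the largest cluster, vehicle and IACS mice read 189 and 121 CPM of Cxcr2 and 125 and 55.0 of Ccr1. Fpr1 read 63.5 and 42.9 there and Fpr2 470 and 265. The part of the changed mix was not tested. Immature neutrophils had 5 of 6 receptors lower, against 6.3% of 10034 genes. ProNeu and preNeu had 3 of 6 each, against 7.62% of 10529 and 4.62% of 10391 genes. The unnamed cluster had 1 of 6 against 6.29% of 9160 genes, and mature neutrophils had 2 of 6 against 9.78% of 10557 genes. Il1b-rich neutrophils had 0 of 6 by edgeR and by DESeq2, with 4 at an unadjusted p under 0.05, and 8.39% of 6400 genes were called there in either direction. The Il1b-rich class had the fewest UMIs, so its changes were measured less closely. Its changes of Ccr1 (-0.26 ± 0.09) and Cxcr2 (-0.14 ± 0.07) were under the size threshold. In mature neutrophils they were -0.74 ± 0.03 and -0.56 ± 0.03.

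In monocytes the receptor that marks them was lower. Ccr2 read 847 and 847 CPM in WT, 908 and 893 in vehicle mice and 619 and 593 in IACS mice. The IACS libraries stood below all others, and Ccr2 fell by 0.56 ± 0.03 on the log2 scale, to 0.678 of its vehicle level (adjusted p = 6.84e-13, edgeR). The share of monocytes with a Ccr2 UMI after thinning was 58.9% and 62.9% in vehicle mice and 48.5% and 46.2% in IACS mice. The summed monocyte markers went from 7755 and 7915 CPM in vehicle to 6055 and 5861 in IACS mice, and those of proNeu from 4563 and 4758 to 7260 and 7534; their part in the change was not tested. Values in other Ccr2-bearing cells are given without a test. Progenitors went the other way, with 36.8 and 67.9 CPM in vehicle mice and 109 and 122 in IACS mice, and no overlap between these groups. T and NK cells read 252 and 367 CPM in vehicle mice and 159 and 124 in IACS mice, and plasmacytoid dendritic cells read 194 and 190 in vehicle mice and 153 and 82.4 in IACS mice. Fpr2 in monocytes, at 32.8 and 27.1 CPM in vehicle mice and 20.0 and 19.9 in IACS mice, under the B cell values in CPM, fell by 0.57 ± 0.13, and the call was lost without vehicle library 1 (-0.42), IACS library 1 (-0.57) or IACS library 2 (-0.57), with DESeq2 (-0.57) or after thinning (-0.97). These 2 of 6 compare with 3.37% of 11290 genes called lower in monocytes.

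**Figure D3:**
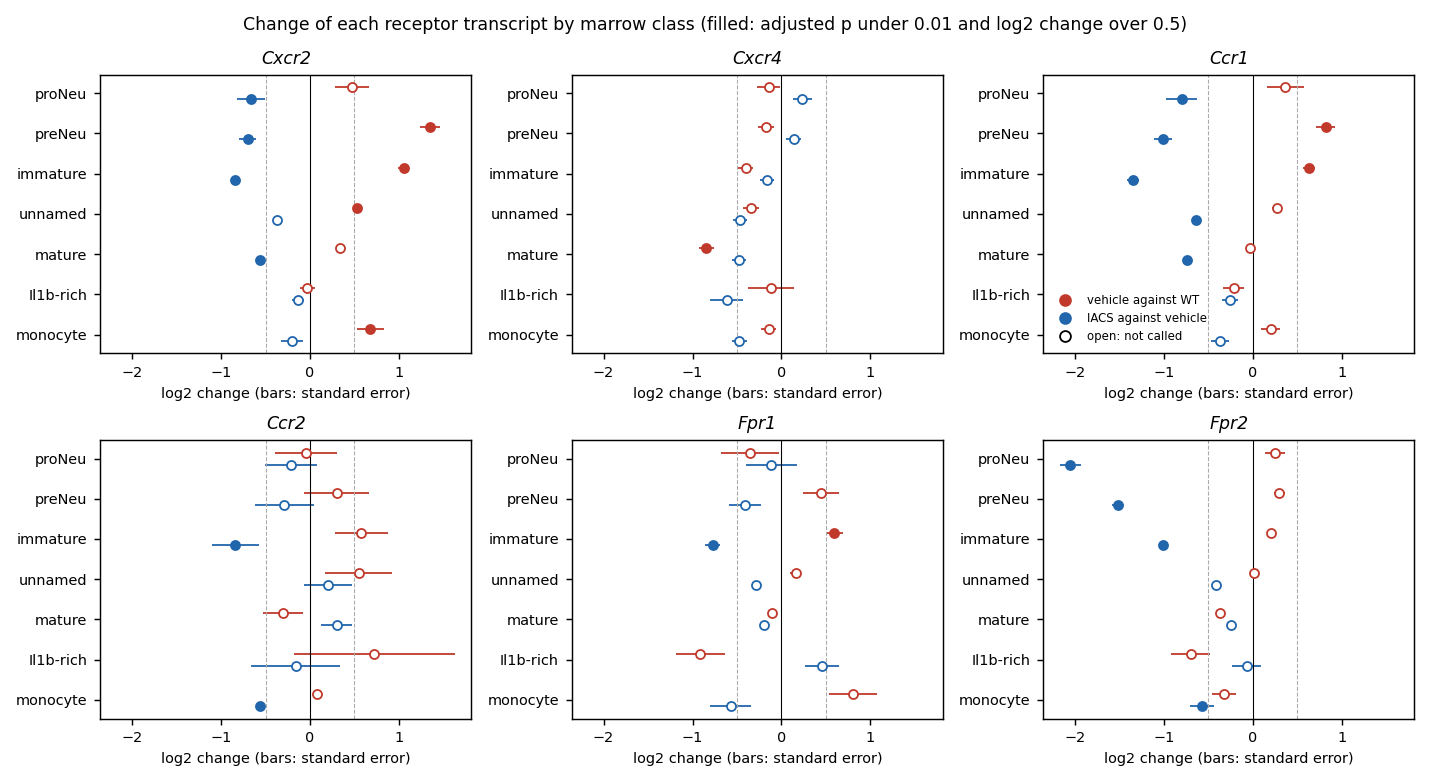
Log2 change of each receptor by class, red for vehicle against WT and blue for IACS against vehicle, with standard errors as bars and dashed lines at 0.5 in size. Filled points were called; Fpr2 shows blue falls of 2.05, 1.52 and 1.02 in proNeu, preNeu and immature cells, and the only filled point of Cxcr4 is the fall of 0.85 in mature neutrophils of vehicle against WT mice.

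Over 18 other settings, such as other scaling, other tests, other clustering and leaving out libraries, 2 of the 7 calls of vehicle against WT were kept in all, Cxcr2 in preNeu and in immature neutrophils. Of the 15 calls of IACS against vehicle, 6 were kept in all. These were Fpr2 in proNeu, preNeu and immature neutrophils, Ccr1 in immature and mature neutrophils, and Ccr2 in monocytes. None of the calls changed sign in any setting.

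**Figure D4:**
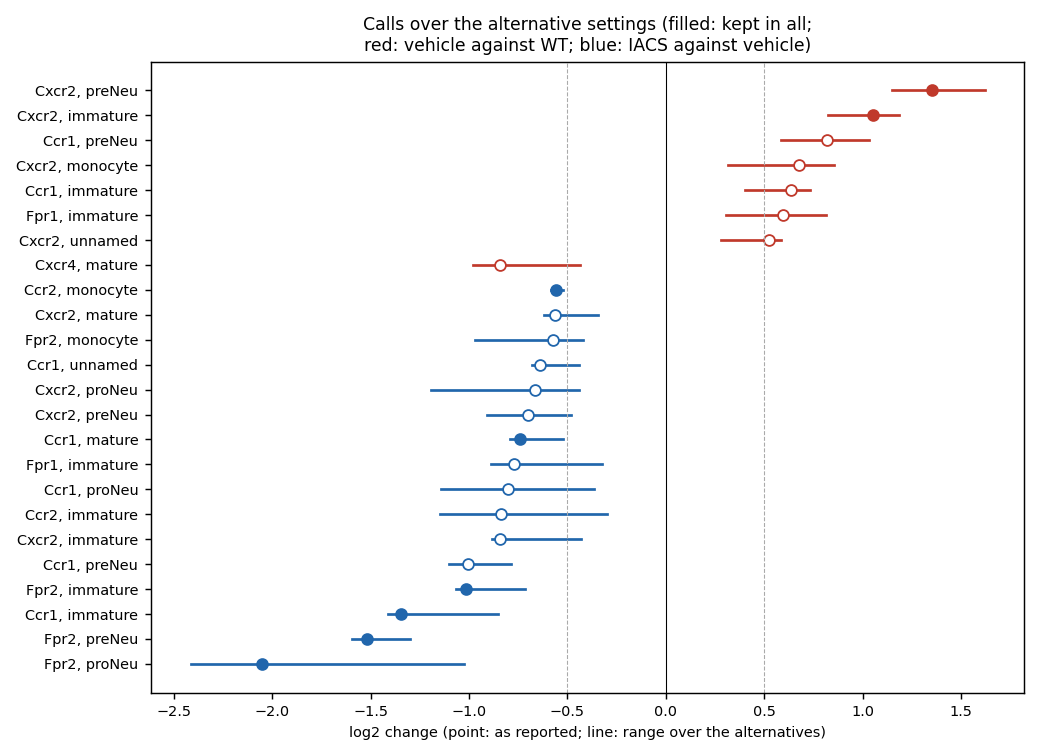
Log2 change of every called pair, the unnamed cluster included, as reported (point) and its range over the other settings (line); red is vehicle against WT, blue IACS against vehicle. Filled points kept their call in all settings in which they could be fitted, and no line crosses 0.

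The changes differed between stages. In 1 model of immature and mature neutrophils with the library as a block, the change of vehicle against WT was lower in mature than in immature cells by 0.75 ± 0.06 for Cxcr2, 0.70 ± 0.07 for Ccr1, 0.74 ± 0.10 for Fpr1, 0.61 ± 0.05 for Fpr2 and 0.48 ± 0.12 for Cxcr4 on the log2 scale. The call of Cxcr4 was lost without WT library 1 (-0.35), WT library 2 (-0.51), vehicle library 1 (-0.29) or IACS library 2 (-0.43). That made 5 of 6 receptors past an adjusted p of 0.01, against 5.55% of 10967 genes. For IACS against vehicle the change was higher (less negative) in mature than in immature cells by 0.82 ± 0.05 for Fpr2, 0.66 ± 0.07 for Ccr1, 0.63 ± 0.09 for Fpr1 and 0.33 ± 0.05 for Cxcr2, and by 1.19 ± 0.32 for Ccr2, which is near background in both. Without IACS library 2 the difference of Cxcr2 was 0.16 and not past the threshold. With stages assigned per cell, the Cxcr2 falls given above were of like size in immature and mature neutrophils, so a smaller fall in mature cells was not seen. The Ccr2 difference was lost without vehicle library 1 (1.08), vehicle library 2 (1.14), IACS library 1 (1.02) or IACS library 2 (1.35). These 5 of 6 compare with 12.4% of genes.

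Mature neutrophils and monocytes were compared in the same way. The change of vehicle against WT was lower in mature neutrophils than in monocytes by 0.71 ± 0.12 for Cxcr4 and 0.92 ± 0.25 for Fpr1, 2 of 6 receptors against 5.24% of 12317 genes. The change of IACS against vehicle was higher in mature neutrophils by 0.85 ± 0.17 for Ccr2 and lower by 0.37 ± 0.11 for Cxcr2 and 0.38 ± 0.10 for Ccr1, 3 of 6 against 16.9% of genes. Fpr1 was not past the threshold without WT library 1 (-0.77), WT library 2 (-1.12), vehicle library 1 (-0.91) or vehicle library 2 (-0.91). Cxcr2 and Ccr1 were not past it without vehicle library 1 (-0.26 and -0.30) or IACS library 2 (-0.22 and -0.34). Fpr1 in monocytes, at 5.27 to 11.6 CPM, and Cxcr2 in monocytes lay under the B cells of the same library in CPM, while Ccr1 in monocytes lay above them in 5 of 6 libraries, with a Ccr1 UMI in 35.4% to 42.2% of monocytes.

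Other genes of the same pathways moved in both directions. Among 30 other chemoattractant receptors, 15 were tested in mature neutrophils, of which 5 rose and 1 fell in vehicle against WT and 1 rose and 4 fell in IACS against vehicle. Of the 10557 genes tested in these cells, 4.48% were called higher and 3.57% lower in vehicle against WT, and 11.2% higher and 9.78% lower in IACS against vehicle. Cxcr1, the sister receptor of Cxcr2, read 4.50 and 4.89 CPM in WT, 21.8 and 25.2 in vehicle mice and 3.07 and 2.23 in IACS mice. It rose by 2.44 ± 0.22 with the tumor and fell by 3.39 ± 0.19 with IACS-70654. Cxcr5, known from B cells, rose by 2.10 and fell by 1.80 in the same comparisons. Gpr84, a receptor of medium-chain fatty acids, rose by 1.87 with the tumor, and Gpr35 by 1.48, the latter not called by DESeq2. With IACS-70654 the egress receptor S1pr1 rose by 2.67 ± 0.38, from 1.21 and 0.361 to 5.87 and 5.36 CPM, and Ptafr, the receptor of platelet-activating factor, fell by 0.73. Fpr3, shown because it shares bases with Fpr2, fell by 0.96 in mature neutrophils with the tumor. It fell by 2.48 in preNeu, 1.68 in immature neutrophils and 0.84 in the unnamed cluster with IACS-70654, where reads of the 2 genes may have been split. In monocytes, of 9 tested, Gpr35 fell by 2.47, the leukotriene B4 receptor Ltb4r1 by 0.93 and S1pr4 by 0.63 with IACS-70654, and Cx3cr1, the fractalkine receptor, fell by 0.59 with the tumor. The fall of S1pr4 was not called by DESeq2. Of the 11290 genes tested in monocytes, 3.37% were called lower and 2.51% higher with IACS-70654, and 0.39% lower and 0.576% higher with the tumor.

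Ligands of the 6 receptors were measured less often in these cells. Of 20, 10 were tested in mature neutrophils, with 3 higher and 1 lower in each comparison, beside the shares of all genes called in these cells, 4.48% higher and 3.57% lower in vehicle against WT and 11.2% and 9.78% in IACS against vehicle. Mif, which binds Cxcr2 and Cxcr4, read 15.3 and 18.3 CPM in WT, 63.4 and 64.5 in vehicle mice and 13.9 and 16.5 in IACS mice. It rose by 2.04 ± 0.13 with the tumor and fell by 2.28 ± 0.10 with IACS-70654. Ccl6, a ligand of Ccr1, fell by 0.85 with the tumor in mature neutrophils and by 0.58 in monocytes. Ccl9 rose by 0.97 with the tumor, a rise not called by DESeq2, and Saa3, a ligand of Fpr2, rose by 2.25. Saa3 was low, at 0.89973 and 0.91717 CPM in WT and 2.88 and 5.05 in vehicle mice. Ccl9 and Saa3 rose again by 0.99 and 1.61 with IACS-70654, with Ccl3 by 0.86. In monocytes Ccl3 and Ccl4 rose by 0.79 and 0.96 with IACS-70654, and the rise of Ccl4 was not called by DESeq2.

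Signaling genes downstream of the receptors were counted next. Of 20 genes of chemotaxis signaling, all were tested in mature neutrophils and 0 were called in either comparison by edgeR or DESeq2, although 13 in vehicle against WT and 18 in IACS against vehicle had an unadjusted p under 0.05. Of all genes tested there, 8.05% and 21.0% were called in either direction. In proNeu 5 of the 20 fell and 1 rose with IACS-70654, where 7.62% of all genes tested were called lower and 5.65% higher, and those given here were named after their values were seen. The kinase Fgr fell by 0.85, the PI3K adaptor Pik3r5 by 0.60, the G protein subunit Gna15 by 0.54 and the small GTPase Rac2 by 0.53, and the G protein subunit Gng2 rose by 1.12. In monocytes Fgr fell by 0.57. Of 11 genes of receptor desensitization, Grk5, a kinase that silences active receptors, fell by 0.57 and the arrestin Arrb1 by 0.73 with the tumor in mature neutrophils, and Grk5 rose by 0.87 with IACS-70654. In monocytes Rgs1, a brake on G protein signaling, rose by 2.46 with IACS-70654, from 2.98 and 1.84 to 15.1 and 11.6 CPM.

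Adhesion molecules of retention and release included 9 genes, all tested. In mature neutrophils the integrin subunit Itga4, part of the VLA-4 anchor to marrow stroma, rose by 0.77 and the selectin ligand Selplg by 0.55 with the tumor. With IACS-70654 Selplg fell by 0.62 ± 0.03, while Itgb1, the partner of Itga4, rose by 0.86 ± 0.12. In monocytes 0 of 9 were called in either comparison by edgeR or DESeq2, with 4 in vehicle against WT and 5 in IACS against vehicle at an unadjusted p under 0.05. Of all genes tested in monocytes, 0.965% and 5.88% were called in either direction.

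The genes with the most similar pattern over 76 sums of 13 marrow classes and 6 libraries, by Pearson correlation of log2(CPM + 10) among 9418 genes, are given as a description, since sums of 1 library share depth and free RNA. They were Grina (0.982), Arg2 and Ccpg1 for Cxcr2, Lpcat2 (0.938), Cxcr2 itself and Atg7 for Ccr1, Dhrs9 (0.962), the granule protease gene Mmp9 and Adam8 for Fpr1, and Mmp25 (0.956), Ankrd22 and Ifnlr1 for Fpr2. Ccr2 went with the monocyte genes Ms4a6c (0.916), S100a4 and Ahnak. Cxcr4 had the weakest best match, Cdc42ep3 at 0.765, then Plekhg3 and Lbr.

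In 2208L tumors Cxcr2 was again highest in neutrophils and Ccr2 in monocytes. The tumor had 1 library per condition, so its values carry exact 95% Poisson intervals for counting error only and no test of the treatments. The classes held 1577 neutrophils, 1687 monocytes and 6122 macrophages. Tumor neutrophils carried Cxcr2 at 496 CPM (442 to 556) in vehicle, 511 (441 to 589) in IACS, 564 (513 to 619) in antiPD1 and 535 (466 to 611) in combination tumors, all 4 intervals overlapping. Cxcr4 was at 157 (127 to 191), 142 (107 to 186), 176 (148 to 208) and 202 (161 to 252) CPM in the same order. In cells with at least 2000 UMIs, the log2 ratio of Cxcr2 was 0.36 for IACS against vehicle. It was -0.92 there for combination against antiPD1, and neither was called. In mature marrow neutrophils of vehicle mice Cxcr2 stood at 1368 and 1336 and Cxcr4 at 48.9 and 57.8 CPM, values from separately sorted and processed experiments that were not compared by a test.

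Ccr1 was the receptor of tumor neutrophils that differed in both drug contrasts beyond counting error. It read 768 CPM (700 to 841) in vehicle and 564 (491 to 646) in IACS tumors, a log2 ratio of -0.45 (-0.69 to -0.21), and 697 (640 to 757) in antiPD1 and 522 (454 to 598) in combination tumors, a ratio of -0.42 (-0.65 to -0.18). Both were under the log2 ratio of 1 used to call tumor genes. With at least 2000 UMIs per cell these Ccr1 ratios were -0.27 and -0.23. Fpr2 had a ratio of 0.55 (0.13 to 0.96) for IACS against vehicle, which turned to -0.53 in cells with at least 2000 UMIs, and -0.22 (-0.60 to 0.15) for combination against antiPD1. Fpr1 had ratios of -0.30 (-0.92 to 0.31) and -0.96 (-1.63 to -0.34). Ccr2 had 4, 4, 11 and 0 UMIs in vehicle, IACS, antiPD1 and combination neutrophils, and the count of 0 has an exact upper limit of 9.22 CPM, beside 7.497 CPM for the floor of 3 UMIs. None of the 6 receptors was called in tumor neutrophils in either contrast, where 16.1% of 7206 and 15.7% of 7696 genes passed the ratio. For combination against antiPD1, other settings did give calls. With TMM scaling Fpr1 (-1.14) and Ccr2 (-1.06) were called lower, and with at least 2000 UMIs per cell Fpr1 (-1.47) was called lower and Cxcr4 (1.09) higher. Summed neutrophil markers in tumor neutrophils were 47180, 37680, 52750 and 27460 CPM in vehicle, IACS, antiPD1 and combination tumors. Summed immature markers were 1065, 1043, 2585 and 795 CPM in that order. The smaller neutrophil cluster, with more Ccr1 and Fpr1, held 4.90%, 3.25%, 7.22% and 1.62% of the class. In the larger, Ccr1 read 749, 527, 663 and 510 CPM. The part of these shifts in the ratios was not tested.

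Ccr2 separated the drug-treated tumors in macrophages. It read 267 CPM (254 to 282) in vehicle and 63.1 (59.4 to 66.9) in IACS tumors, a log2 ratio of -2.08 (-2.20 to -1.97). It read 247 CPM (231 to 264) in antiPD1 and 66.0 (62.0 to 70.2) in combination tumors, a ratio of -1.91 (-2.04 to -1.77). The tumors with IACS-70654 were 4.24 and 3.75 times lower than their partners, in contrasts that share no library. The same order was seen in the 5 largest macrophage clusters in both contrasts. For vehicle and IACS tumors it was 270 against 37.8 CPM in the cluster led by Zdhhc14, 243 against 31.3 in the cluster led by Ccl8 and Apoe, 232 against 84.7 in the cluster led by Mmp12 and Arg1, 310 against 126 in the interferon-response cluster, and 374 against 150 in the dividing cluster. In the smallest, led by Lpl, with 5 vehicle and 4 antiPD1 cells, it read 89.0 in vehicle, 77.5 in IACS, 0 in antiPD1 and 55.2 in combination tumors. Dendritic cells read 445 CPM of Ccr2 (351 to 556) in vehicle and 345 (310 to 383) in IACS tumors. They read 335 (263 to 422) in antiPD1 and 276 (241 to 314) in combination tumors, above the macrophages of each library. These were 32, 168, 38 and 142 dendritic cells in vehicle, IACS, antiPD1 and combination tumors. T and NK cells read 146, 144, 134 and 121 CPM in that order.

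Other transcripts moved along in these macrophages. Summed macrophage markers were 64520 and 57510 CPM in vehicle and antiPD1 and 92720 and 93770 in IACS and combination tumors, and summed dendritic cell markers 3066 and 2470 against 752 and 848. Their part in the Ccr2 values was not tested. Tumor monocytes, which were 137 and 163 cells in vehicle and antiPD1 against 703 and 684 in IACS and combination tumors, read 1078 CPM of Ccr2 (993 to 1169) in vehicle and 605 (580 to 631) in IACS tumors, a ratio of -0.83 (-0.97 to -0.70). They read 1032 (958 to 1111) in antiPD1 and 538 (515 to 561) in combination tumors, a ratio of -0.94 (-1.065 to -0.82), and both ratios were short of 1 in size. Marrow monocytes, from another experiment, had a log2 change of -0.56 ± 0.03. Summed macrophage markers in tumor monocytes were 20860 and 19370 CPM in vehicle and antiPD1 and 33220 and 34240 in IACS and combination tumors. Summed dendritic cell markers there were 3364 and 3056 against 1756 and 1555 CPM, and summed monocyte markers 6440 and 7005 against 3611 and 4105. The part of these 3 lists in the Ccr2 values was not tested.

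The formyl peptide receptors were low in tumor monocytes and macrophages. Fpr2 in both and Fpr1 in macrophages were lower in the tumors with IACS-70654, while Fpr1 in monocytes had only 1, 2, 1 and 4 UMIs in vehicle, IACS, antiPD1 and combination tumors, too few for a comparison. Fpr2 in monocytes read 36.6 CPM in vehicle and 5.20 in IACS tumors (ratio -2.82, -3.80 to -1.835) and 43.7 in antiPD1 and 12.1 in combination tumors (ratio -1.85, -2.54 to -1.14). Fpr2 in macrophages read 17.5 and 4.12 CPM (ratio -2.08, -2.55 to -1.62) and 14.9 and 6.25 (ratio -1.25, -1.74 to -0.74). Fpr1 in macrophages read 6.20 and 1.28 CPM (ratio -2.28) and 7.98 and 0.967 (ratio -3.05). Thinned to 1000 UMIs, these Fpr1 ratios were -0.80 and -3.42 and not called, and the Fpr2 ratio of monocytes for IACS against vehicle was -1.64 and not called. Fpr1 also read 5.93 CPM in vehicle fibroblasts and 8.03 in antiPD1 T and NK cells, on 3 UMIs each, near the macrophages of these tumors. Cells that should lack Fpr2 give the background. Fibroblasts read 15.8 CPM in vehicle on 8 UMIs, near the macrophages, and 3.12, 2.77 and 2.54 CPM in IACS, antiPD1 and combination tumors on 1 UMI each, and tumor cells 2.42, 0.230, 1.20 and 0.770 CPM in the same order. The part of free RNA in the Fpr2 values was not tested. Summed neutrophil markers in macrophages were 376 and 259 CPM in vehicle and IACS and 627 and 289 in antiPD1 and combination tumors, and in monocytes 436, 285, 1123 and 652; their part in these values was not tested. Cxcr2 in macrophages and monocytes stood at 0 to 9.09 CPM. Its ratios for combination against antiPD1, -1.28 (-1.92 to -0.62) and -1.36 (-3.00 to 0.52), rest on 58 and 33 and on 11 and 5 UMIs. Without the cells of highest doublet score they were -0.42 and -0.19.

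In all, 1 of 6 receptors in monocytes was called lower for IACS against vehicle and 2 of 6 for combination against antiPD1, against 5.1% of 10215 and 5.23% of 10307 genes. Fpr1 in monocytes had too few UMIs to be called in either contrast. Cxcr2 there, at 0 UMIs in vehicle tumors, had no ratio for IACS against vehicle. In macrophages 3 and 4 of 6 receptors were called lower, against 5.16% of 13403 and 5.76% of 13057 genes. Ccr1 in macrophages read 217 CPM (205 to 230) in vehicle, 162 (156 to 168) in IACS, 213 (198 to 228) in antiPD1 and 190 (184 to 197) in combination tumors, and Cxcr4 read 39.8, 50.5, 37.7 and 54.3 CPM in the same order.

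**Figure D5:**
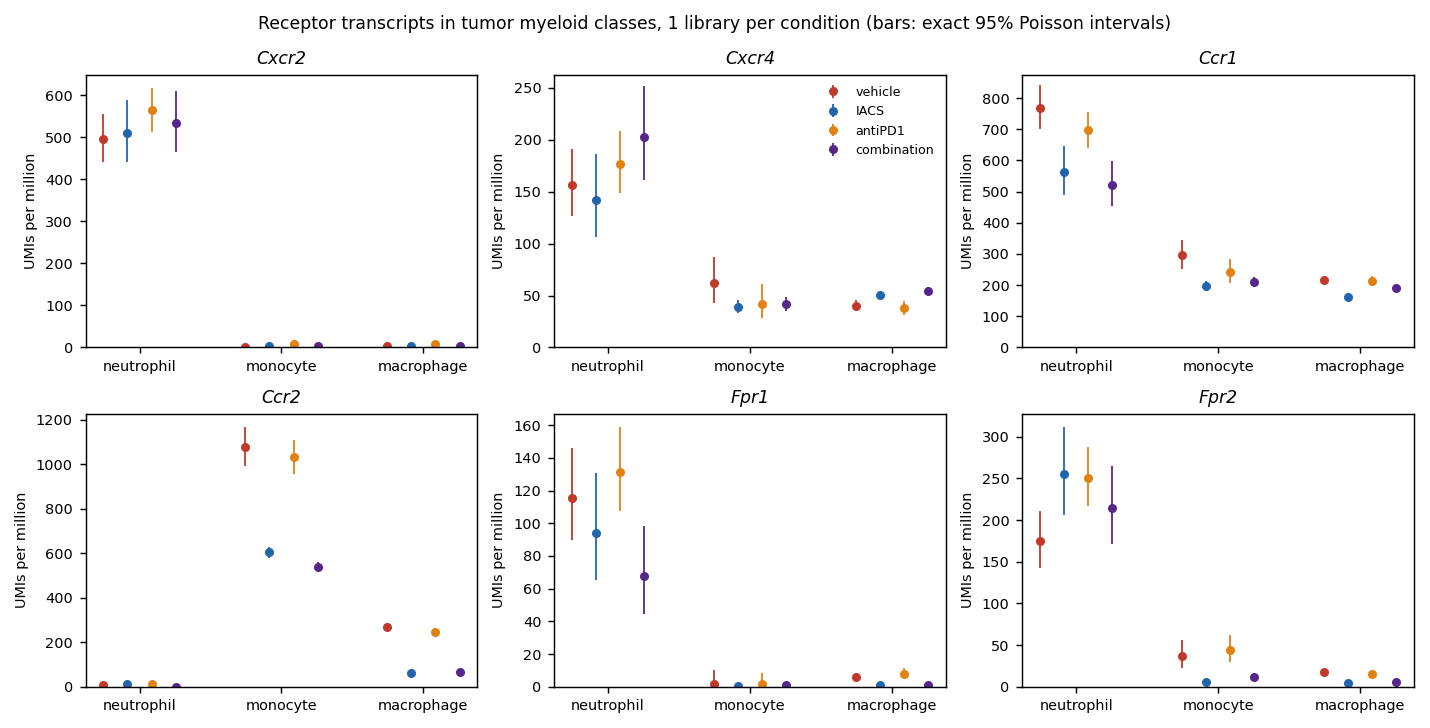
Level of each receptor transcript in 2208L tumor neutrophils, monocytes and macrophages, in CPM, 1 point per condition with exact 95% Poisson intervals. Ccr2 in macrophages stands at 267 and 247 CPM in vehicle and antiPD1 and at 63.1 and 66.0 in IACS and combination tumors, while Cxcr2 in neutrophils lies at 496 to 564 CPM in all 4.

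Ligands of these receptors are given for a single tumor class each, and their levels in the other classes are not compared here. Cxcl2, a ligand of Cxcr2, was at 20950 CPM in neutrophils themselves of vehicle tumors and at 16600, 21490 and 22180 in IACS, antiPD1 and combination tumors. Cxcl12, a ligand of Cxcr4, was at 154 and 175 CPM in fibroblasts of vehicle and antiPD1 and at 302 and 298 in those of IACS and combination tumors. These fibroblasts were only 46, 34, 37 and 43 cells in the same order. Ccl2, a ligand of Ccr2, was at 319 and 306 CPM in macrophages of vehicle and antiPD1 and at 550 and 655 in those of IACS and combination tumors. Ccl3, a ligand of Ccr1, was at 3082, 1970, 2955 and 2504 CPM in neutrophils of vehicle, IACS, antiPD1 and combination tumors. These are single libraries with no replicate check.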

How the data were processed

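The deposited values are raw UMI counts per gene and cell, which the authors made with Cell Ranger (7.2.0 for marrow and 7.1.0 for tumor, per the file headers) on mm10. Of 16 libraries, 10 were used, and the 6 lineage-negative c-Kit+ libraries were not used here. The genes, lists and tests were chosen with earlier results of these data known. Cells with 200 to 6000 genes and at most 10% mitochondrial UMIs were kept. Cells were clustered with scanpy 1.11.5 and leidenalg 0.10.2 (2000 variable genes, the receptors and lists left out, 30 components, resolution 1 and, for neutrophils integrated over the 3 groups with Seurat 5.3.0, 0.8), and clusters were named by fixed markers. Doublets were kept, because scrublet marked 0% to 0.659% of cells, and the 4% with the highest scores were left out as an alternative. Counts were summed per class and library and tested with edgeR 4.0.16 (filterByExpr, TMM, quasi-likelihood, all 6 marrow libraries, Benjamini-Hochberg adjustment) in R 4.3.3, tested on simulated data first. DESeq2 1.42.0, other scaling, filters, clustering and left-out libraries were tried as alternatives. Replicate libraries differed beyond sampling noise (chi-square per degree of freedom 1.17 to 2.33). With 2 libraries against 2, the smallest exact permutation p is 0.333, so none is given. Tumor ratios carry exact 95% intervals of counting error, and a floor is 3 UMIs. From each list, up to 4 called genes with the largest change in mature neutrophils and in monocytes are named per comparison, and for each receptor the 3 most similar genes. Some genes of the lists that met a naming rule are not reported here.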

Additional observations from a re-analysis of the deposited data

Results flagged for a closer look

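In 15 cases the change of a receptor differed between cell classes by a test of the difference itself (edgeR, adjusted p under 0.01). Of all genes tested, 5.55% and 12.4% differed in this way between mature and immature neutrophils in vehicle against WT and IACS against vehicle. Between mature neutrophils and monocytes the shares were 5.24% and 16.9%. For vehicle against WT, the log2 change in mature minus that in immature neutrophils was -0.751 for Cxcr2, -0.476 for Cxcr4, -0.703 for Ccr1, -0.736 for Fpr1 and -0.605 for Fpr2. For IACS against vehicle it was 0.329 for Cxcr2, 0.658 for Ccr1, 1.19 for Ccr2, 0.628 for Fpr1 and 0.823 for Fpr2. Both sets share the vehicle libraries. For mature neutrophils minus monocytes it was -0.709 for Cxcr4 and -0.918 for Fpr1 in vehicle against WT, and -0.37 for Cxcr2, -0.376 for Ccr1 and 0.849 for Ccr2 in IACS against vehicle. The monocyte levels of Cxcr2 and Fpr1 lay under, and the neutrophil levels of Ccr2 near, those of B cells in CPM. Leaving out single libraries lost the mature minus immature differences of Cxcr4 in vehicle against WT and of Cxcr2 and Ccr2 in IACS against vehicle. It also lost those of Fpr1, Cxcr2 and Ccr1 against monocytes. After thinning, most of the 15 were not past the threshold or not tested, among them all those against monocytes.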

How the results depend on the processing

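Of the calls in marrow, 6 of 7 in vehicle against WT and 11 of 15 in IACS against vehicle were kept without each library in turn, and no called change in marrow changed sign in any setting. In the tumor, ratios that were not called did, such as Fpr2 in neutrophils (0.55 to -0.53 with at least 2000 UMIs), Fpr1 in neutrophils (-0.30 to 0.26 thinned) and Cxcr2 in neutrophils (0.04 to -0.12 with TMM) for IACS against vehicle, and Cxcr4 in macrophages (0.53 to -0.12 thinned) for combination against antiPD1. Thinning each cell to 1000 UMIs, which left 27 of 36 pairs tested, gave 4 calls in vehicle against WT and 9 in IACS against vehicle, 3 and 1 differences between mature and immature neutrophils, 0 and 0 between mature neutrophils and monocytes, and 5 calls of 10 in the tumor. Without a filter on low counts, 1 difference between mature neutrophils and monocytes was past the threshold in vehicle against WT. The cause of these losses was not tested, beyond the fewer UMIs that thinning leaves. Leaving out single libraries gave 6 to 8 and 12 to 16 calls, 4 to 5 and 3 to 5 differences between mature and immature neutrophils, and 1 to 2 and 1 to 3 between mature neutrophils and monocytes. DESeq2 gave 6 and 11 calls, and total UMIs as the scale, chosen after seeing the data, also 6 and 11. The mean share of mature neutrophils with a Cxcr2 UMI was 69.3% at 1000 UMIs, 88.2% at 2000 and 95.5% without thinning. With the replicate number as a block the calls were 7 and 15, and the numbers do not pair the libraries (correlations of -0.028 to 0.02). Il1b-rich neutrophils could not be fitted with at least 2000 UMIs per cell.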
